A study of Saccharomyces pastorianus with 18 samples.

Results

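The ADE genes of purine biosynthesis were followed in lager yeast, Saccharomyces pastorianus, whose hybrid genome combines one sub-genome of S. cerevisiae and one of S. eubayanus origin. The 10 genes were chosen by name: ADE4, ADE5,7, ADE8, ADE6, ADE2, ADE1, ADE13, ADE16, ADE17 and ADE12. They correspond to 19 of the 11979 rows of the count table. For 9 genes there was a row in each sub-genome, and for ADE8 only an S. cerevisiae row was found under that symbol.

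RNA-seq read counts were available for 18 libraries of 2 mutant strains in 3 conditions, with 3 libraries in each of the 6 groups. The strains were W34/70 9.7 and CBS1538 11.1, derived from the lager strains W34/70 and CBS1538 by exposure to radicicol, which blocks the Hsp90 chaperone and was used at 20, 40 or 100 µg/mL for 24 or 48 h, and by selection for resistance to a phenylalanine analogue (B2TA at 75 µg/mL or PFPA at 200 µg/mL). Each strain is thus a single resistant isolate, and no library here is labelled in all its fields as a parent. Each strain was grown at 20 °C in a minimal medium with 1% dextrose, 1% maltose and 0.5% ammonium sulfate and no amino acids, and harvested in exponential phase. Each was also grown at 13 °C in 10 mL fermentations of 10% wort with 1 mM ZnSO4, sampled on day 4 and on day 2. Medium, temperature and growth phase therefore changed together between minimal medium and wort, and their parts cannot be told apart. For the CBS1538 11.1 day 2 libraries the titles name the mutant but the strain field names the parent, so every result that uses them, including the strain differences on day 2, carries that doubt.

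In yeast the ADE enzymes build the purine ring stepwise on phosphoribosyl pyrophosphate (PRPP), ending in inosine monophosphate (IMP), which is then turned into AMP or GMP. In S. cerevisiae most ADE genes are activated together by the transcription factors Bas1 and Pho2, and their transcription falls when adenine is supplied from outside. The pathway takes one-carbon units and glycine from folate metabolism, and mutants that lack ADE1 or ADE2 are known for their red colour.

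The libraries held 12782267 to 19467656 counts for W34/70 9.7 and 5266324 to 16571345 counts for CBS1538 11.1. The S. eubayanus rows took 30.0% to 34.9% of the counts in W34/70 9.7 and 88.0% to 89.4% in CBS1538 11.1. On S. eubayanus chromosome VII, W34/70 9.7 had 1417 counts in day 4 replicate 1 and 1465 in day 2 replicate 2, against 284445 to 396506 in its other 7 libraries. The RNA came from whole cultures, so a change in all cells and one in part of them cannot be told apart. Levels are given as counts scaled to a common library size of 1000000 (CPM) after TMM scaling, with the counts of the S. cerevisiae and S. eubayanus rows of a gene summed unless a copy is named. Errors of means are SD over n = 3 libraries, and fold changes are log2 values ± SE. Calls required a p under 0.05 in edgeR's quasi-likelihood test after Benjamini-Hochberg adjustment over all symbols.

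As a sum, the ADE genes were higher in minimal medium than in wort in both strains. Together, the 9 genes with a row in each sub-genome amounted to 4475 ± 90.2 CPM in minimal medium, 1343 ± 196 CPM on day 4 and 1783 ± 413 CPM on day 2 in W34/70 9.7. In CBS1538 11.1 they amounted to 4196 ± 842 CPM in minimal medium, 1681 ± 650.1 CPM on day 4 and 1351 ± 129 CPM on day 2. As a share of all counts, before any scaling, the same 9 genes took 0.492, 0.468 and 0.500% in the minimal-medium libraries of W34/70 9.7, against 0.142, 0.193 and 0.137% on day 4 and 0.180, 0.167 and 0.109% on day 2. In CBS1538 11.1 the shares were 0.378, 0.381 and 0.458% in minimal medium, against 0.236, 0.139 and 0.136% on day 4 and 0.126, 0.133 and 0.118% on day 2. Within each strain every minimal-medium library lay above every wort library on both scales.

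Between minimal medium and day 2, 8 of the 10 genes rose and 1 fell in W34/70 9.7, with a median log2 fold change of 1.74, where 33.1% of all symbols were called higher and 32.4% lower and the median of all symbols was -0.02. In CBS1538 11.1, 8 of 9 rose and none fell, with a median of 1.84, against 31.6% of all symbols called higher, 24.3% lower and a median of 0.12. Between minimal medium and day 4, 8 of 10 rose and none fell in W34/70 9.7 (median 1.88, against 26.3% of symbols called higher, 28.9% lower and a median of -0.03). In CBS1538 11.1, 7 of 9 rose and none fell (median 1.63, against 29.1% called higher, 26.6% lower and a median of 0.05). Where none is said to have fallen, none was lower at an unadjusted p under 0.05 either, and DESeq2 called 0 lower. In each strain the 2 comparisons share the minimal-medium libraries, so they are not independent of each other.

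**Figure D1:**
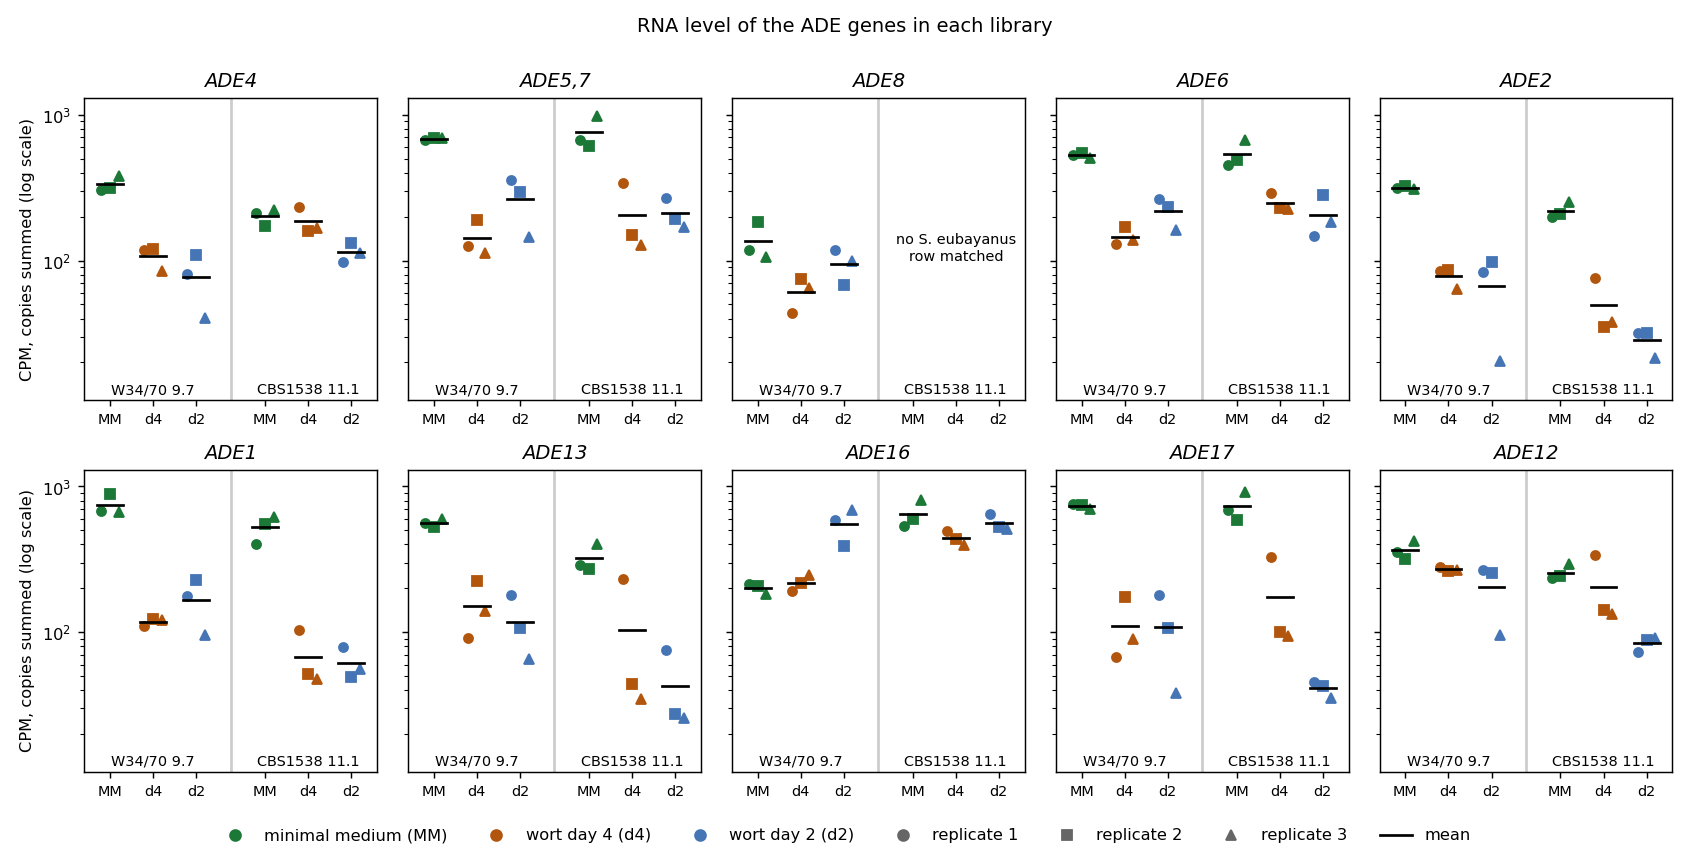
Level of each ADE gene in every library, as CPM with both copies summed, on a log axis, with W34/70 9.7 on the left and CBS1538 11.1 on the right of each panel. Symbols give the replicates and bars the means, and the minimal-medium points lie apart from the wort points for most genes, with ADE16 as the clearest exception.

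The first committed step, the transfer of an amino group to PRPP, is carried out by the ADE4 product. In W34/70 9.7, ADE4 read 303, 315 and 380.3 CPM in minimal medium, 119, 119 and 84.5 CPM on day 4 and 80.5, 109.8 and 40.0 CPM on day 2 (replicates 1 to 3 throughout). All minimal-medium libraries were above all wort libraries, and the log2 fold change was 2.11 ± 0.28, adjusted p = 6.32e-06 over day 2 and 1.63 ± 0.28, adjusted p = 0.000121 over day 4. CBS1538 11.1 had 213, 172 and 221 CPM in minimal medium, 235, 159.7 and 166 CPM on day 4 and 97.7, 133 and 113 CPM on day 2. There the day 4 libraries overlapped those of minimal medium, with a log2 fold change of 0.11 ± 0.27, adjusted p = 0.838, and only the rise over day 2 was called, at 0.82 ± 0.28, adjusted p = 0.0201. That call was lost without any of 4 libraries, minimal medium replicate 1 or 3 or day 2 replicate 1 or 3, with log2 fold changes of 0.67, adjusted p = 0.0984, 0.75, adjusted p = 0.0567, 0.64, adjusted p = 0.108, and 0.69, adjusted p = 0.094.

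ADE5,7 encodes a bifunctional enzyme that acts at both the second and the fifth step. It read 671, 693 and 693 CPM in minimal medium in W34/70 9.7, 125, 190.3 and 113 CPM on day 4 and 359, 293 and 145 CPM on day 2. The CBS1538 11.1 libraries read 670.1, 613 and 985 CPM in minimal medium, 339, 149.8 and 128 CPM on day 4 and 269, 194 and 170.5 CPM on day 2. Minimal medium stood above wort without overlap in both strains, while the wort days overlapped each other. The log2 fold change over day 4 was 2.27 ± 0.37, adjusted p = 8.31e-05 in W34/70 9.7 and 1.88 ± 0.37, adjusted p = 0.000422 in CBS1538 11.1, and that over day 2 was 1.37 ± 0.36, adjusted p = 0.00322 in W34/70 9.7 and 1.84 ± 0.37, adjusted p = 0.000497 in CBS1538 11.1.

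ADE8 encodes the glycinamide ribonucleotide transformylase of the third step and could be followed only in W34/70 9.7. It read 118, 185 and 105 CPM in minimal medium, 43.8, 74.3 and 64.5 CPM on day 4 and 119, 68.0 and 99.0 CPM on day 2, so that minimal medium overlapped day 2 but not day 4. It rose over day 4, at 1.16 ± 0.29, adjusted p = 0.0042, and over day 2 its log2 fold change was 0.51 ± 0.29, adjusted p = 0.132. When library totals replaced the TMM factors, the comparison with day 2 was called, at 0.87, adjusted p = 0.0147. In CBS1538 11.1 the S. cerevisiae ADE8 row held 1 count over the 9 libraries, and no S. eubayanus row carried the symbol, so ADE8 of that strain was not analysed here.

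ADE6, which encodes the enzyme of the fourth step, read 532, 545 and 507 CPM in minimal medium, 129, 169 and 139 CPM on day 4 and 264, 234 and 163 CPM on day 2 in W34/70 9.7. Levels in CBS1538 11.1 were 451, 489 and 674 CPM in minimal medium, 289.9, 231 and 224 CPM on day 4 and 147, 281 and 184 CPM on day 2. Minimal medium was above wort in every library of both strains. The rise over day 4 was 1.86 ± 0.24, adjusted p = 8.33e-06 in W34/70 9.7 and 1.12 ± 0.24, adjusted p = 0.000851 in CBS1538 11.1, and over day 2 it was 1.26 ± 0.24, adjusted p = 0.000194 in W34/70 9.7 and 1.40 ± 0.24, adjusted p = 0.000128 in CBS1538 11.1.

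The genes of the middle steps, ADE2, ADE1 and ADE13, rose over day 2 by log2 values of 2.16 to 2.26 in W34/70 9.7 and 2.92 to 3.08 in CBS1538 11.1. ADE2 encodes the carboxylase that acts on aminoimidazole ribonucleotide, whose accumulation colours ade2 mutants. It read 316, 323 and 310.2 CPM in minimal medium in W34/70 9.7, 84.9, 86.5 and 64.1 CPM on day 4 and 82.8, 97.4 and 20.5 CPM on day 2. For CBS1538 11.1 the libraries gave 199.5, 208 and 251 CPM in minimal medium, 76.4, 35.2 and 37.9 CPM on day 4 and 31.7, 31.7 and 21.6 CPM on day 2. Minimal medium was above wort in every library of both strains, and day 2 replicate 3 of W34/70 9.7 lay well below the other wort libraries of that strain. The rise over day 4 was 2.01 ± 0.40, adjusted p = 0.000479 in W34/70 9.7 and 2.14 ± 0.41, adjusted p = 0.000313 in CBS1538 11.1, and over day 2 it was 2.24 ± 0.41, adjusted p = 0.000136 in W34/70 9.7 and 2.96 ± 0.42, adjusted p = 2.27e-05 in CBS1538 11.1.

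ADE1 encodes the SAICAR synthetase, which joins aspartate to the growing ring. It read 680.4, 891 and 668 CPM in minimal medium in W34/70 9.7, 111, 124 and 120.4 CPM on day 4 and 176, 227 and 96.3 CPM on day 2. In CBS1538 11.1 it read 400.5, 550.5 and 619 CPM in minimal medium, 103, 51.3 and 47.7 CPM on day 4 and 79.6, 49.6 and 56.3 CPM on day 2. Over day 4 it rose by 2.66 ± 0.33, adjusted p = 4.9e-06, in W34/70 9.7 and by 2.96 ± 0.33, adjusted p = 2.05e-06, in CBS1538 11.1. Over day 2 it rose by 2.16 ± 0.32, adjusted p = 1.88e-05, in W34/70 9.7 and by 3.08 ± 0.34, adjusted p = 1.5e-06, in CBS1538 11.1. Every minimal-medium library of a strain was above every wort library of that strain.

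ADE13 encodes adenylosuccinate lyase, which acts on the way to IMP and again on the way to AMP. It read 565, 530.1 and 597 CPM in minimal medium in W34/70 9.7, 90.6, 224 and 140.4 CPM on day 4 and 181, 107 and 65.1 CPM on day 2. CBS1538 11.1 had 289, 272 and 402 CPM in minimal medium, 232, 44.5 and 35.0 CPM on day 4 and 75.7, 27.7 and 25.7 CPM on day 2. Minimal medium did not overlap wort, but the wort libraries varied widely, and replicate 1 was the highest of its group on both days in CBS1538 11.1. The rise over day 2 was 2.26 ± 0.61, adjusted p = 0.00353 in W34/70 9.7 and 2.92 ± 0.63, adjusted p = 0.000931 in CBS1538 11.1, and over day 4 it was 1.90 ± 0.60, adjusted p = 0.0129 in W34/70 9.7 and 1.63 ± 0.59, adjusted p = 0.0307 in CBS1538 11.1. For W34/70 9.7 the call over day 4 was lost without day 4 replicate 1 (1.58, adjusted p = 0.0565). That library also had low counts on S. cerevisiae chromosome XII as a whole, where ADE13 and ADE16 lie. Its median deviation there was -0.95 on the log2 scale from the mean of the other day 4 libraries, over 437 features. In CBS1538 11.1 the call over day 4 was lost on leaving out minimal medium replicate 1 or 3 or day 4 replicate 2 or 3, with log2 fold changes of 1.64, adjusted p = 0.057, 1.44, adjusted p = 0.0871, 1.20, adjusted p = 0.152, and 1.15, adjusted p = 0.146.

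The last steps to IMP are carried out by the isoenzymes Ade16 and Ade17, each a transformylase and cyclohydrolase, and their genes moved differently. In W34/70 9.7, ADE17 read 759.7, 744 and 699 CPM in minimal medium, 67.4, 175 and 90.0 CPM on day 4 and 180.0, 106 and 38.5 CPM on day 2. The CBS1538 11.1 libraries read 690.5, 585 and 922 CPM in minimal medium, 326, 101 and 93.5 CPM on day 4 and 45.3, 43.1 and 35.1 CPM on day 2. In both strains it was the member with the largest fitted rise over day 2, 6.78-fold in W34/70 9.7 (2.76 ± 0.52, adjusted p = 0.000191) and 17.8-fold in CBS1538 11.1 (4.16 ± 0.56, adjusted p = 1.21e-05). Over day 4 the log2 fold change was 2.73 ± 0.52, adjusted p = 0.000308, in W34/70 9.7 and 2.08 ± 0.51, adjusted p = 0.00249, in CBS1538 11.1.

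ADE16 was the member that fell. For W34/70 9.7 it read 213, 208 and 182 CPM in minimal medium, 191, 216 and 245 CPM on day 4 and 588, 390.3 and 689 CPM on day 2. Day 2 stood above the other groups without overlap, and ADE16 was lower in minimal medium than on day 2, at -1.47 ± 0.21, adjusted p = 1.35e-05, while its log2 fold change over day 4 was -0.11 ± 0.21, adjusted p = 0.672. Levels in CBS1538 11.1 were 535, 603 and 802 CPM in minimal medium, 493, 434 and 397 CPM on day 4 and 644, 531 and 513 CPM on day 2. Minimal medium overlapped day 2 and lay above day 4 without overlap, and the log2 fold change was 0.20 ± 0.21, adjusted p = 0.473, over day 2 and 0.55 ± 0.21, adjusted p = 0.0364, over day 4. The call over day 4 was lost with RLE factors (0.52, adjusted p = 0.0553), with no filter on low counts (0.48, adjusted p = 0.079), and without minimal medium replicate 3 or any of the day 4 libraries, the values without day 4 replicates 1, 2 and 3 being 0.57, adjusted p = 0.0709, 0.47, adjusted p = 0.15, and 0.41, adjusted p = 0.199, and that without minimal medium replicate 3 0.37, adjusted p = 0.183.

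Within the pair, ADE17 took most of the counts in the minimal-medium libraries of W34/70 9.7 and about as many as ADE16 in those of CBS1538 11.1. The ADE17 share of ADE16 and ADE17 counts was 78.1, 78.1 and 79.4% in minimal medium, 26.1, 44.7 and 26.9% on day 4 and 23.4, 21.4 and 5.29% on day 2 in W34/70 9.7. It was 56.3, 49.3 and 53.5% in minimal medium, 39.8, 18.9 and 19.0% on day 4 and 6.57, 7.50 and 6.41% on day 2 in CBS1538 11.1. In both strains all 3 conditions were separated from each other, with day 2 lowest. A two-sided exact permutation test gave p = 0.1 for each of the 6 within-strain comparisons (0.1 after adjustment over the 6), which is the smallest p that 3 against 3 libraries allow. The 2 genes are paralogs, so reads from stretches they share could have been counted on either.

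**Figure D2:**
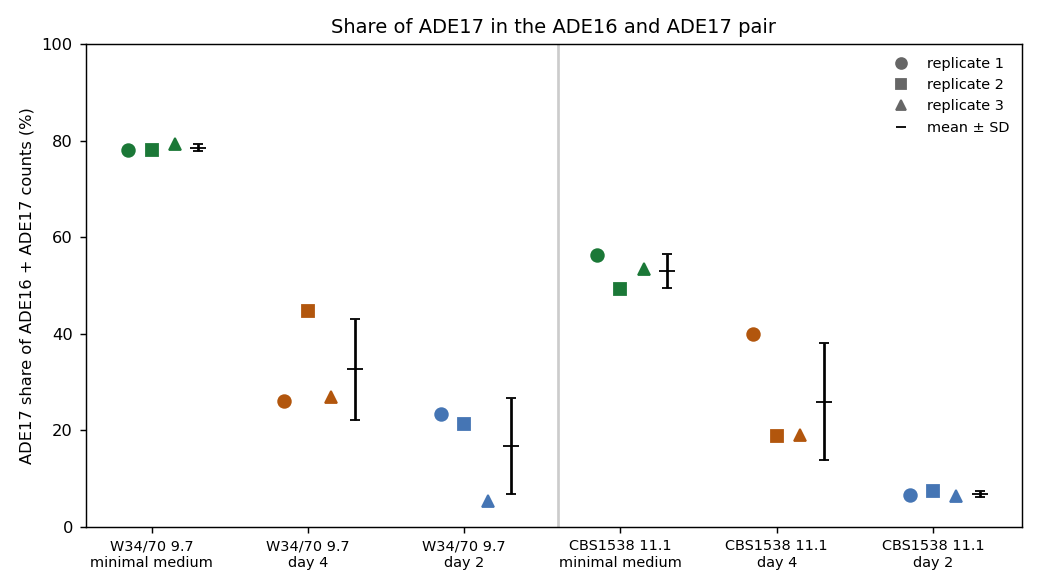
Share of ADE17 in the summed counts of ADE16 and ADE17 (%), by library, for W34/70 9.7 and CBS1538 11.1 in minimal medium, on day 4 and on day 2, with the mean ± SD beside the points. Minimal-medium libraries lie between 78.1% and 79.4% in W34/70 9.7 and between 49.3% and 56.3% in CBS1538 11.1, above every wort library of the same strain.

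ADE12 encodes adenylosuccinate synthetase, which leads from IMP towards AMP. It read 353, 320.4 and 424 CPM in minimal medium in W34/70 9.7, 282, 263 and 268 CPM on day 4 and 265, 254 and 96.4 CPM on day 2. For CBS1538 11.1 the libraries gave 235, 244 and 292 CPM in minimal medium, 336, 143 and 133 CPM on day 4 and 73.5, 88.4 and 90.8 CPM on day 2. Over day 2 it rose in both strains, by 0.83 ± 0.34, adjusted p = 0.0389, in W34/70 9.7 and by 1.61 ± 0.35, adjusted p = 0.000925, in CBS1538 11.1. Over day 4 it was not called in either, at 0.43 ± 0.34, adjusted p = 0.291, in W34/70 9.7 and 0.33 ± 0.34, adjusted p = 0.469, in CBS1538 11.1. The rise over day 2 in W34/70 9.7 rested on day 2 replicate 3, the low library, without which it was 0.39, adjusted p = 0.277. It was also lost without any single minimal-medium library, at 0.73, adjusted p = 0.117, 0.79, adjusted p = 0.0892, and 0.59, adjusted p = 0.194 for replicates 1, 2 and 3, with RLE factors (0.73, adjusted p = 0.0662), with no filter (0.70, adjusted p = 0.0807) and in a fit to the compared groups only (0.82, adjusted p = 0.0693). In CBS1538 11.1 the value over day 4 was 0.83, adjusted p = 0.0391, and so called, without day 4 replicate 1.

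**Figure D3:**
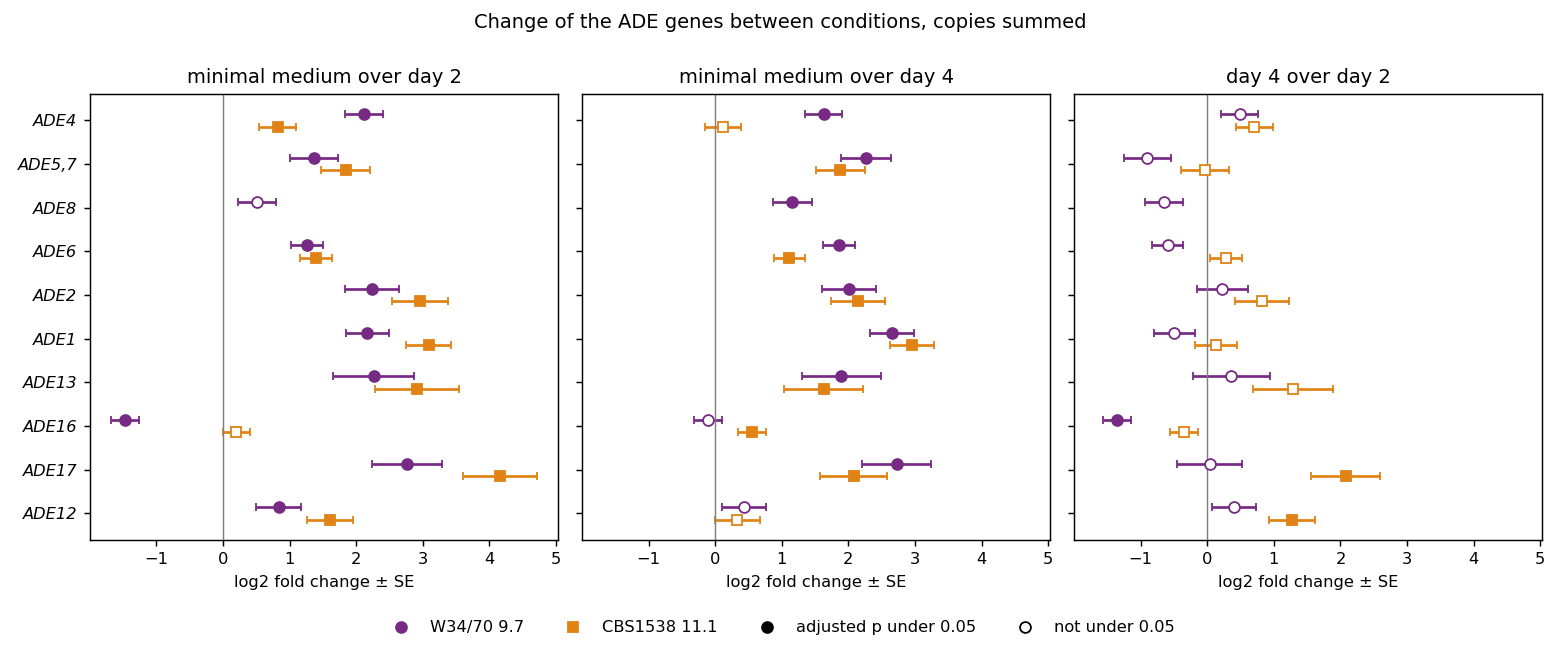
Log2 fold change ± SE of each ADE gene, copies summed, for minimal medium over day 2, minimal medium over day 4 and day 4 over day 2 in W34/70 9.7 (circles) and CBS1538 11.1 (squares), with filled symbols for an adjusted p under 0.05. ADE17 reaches 4.16 over day 2 in CBS1538 11.1, while ADE16 stands at -1.47 in W34/70 9.7.

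Few ADE genes were called within the fermentation. On day 4 relative to day 2, none of the 10 rose and 1 fell in W34/70 9.7 (median log2 fold change -0.23, against 20.9% of all symbols called higher, 17.2% lower and a median of 0.08). At an unadjusted p under 0.05, 0 were higher and 4 lower, and DESeq2 called 0 higher and 3 lower. The gene that fell was ADE16, at -1.35 ± 0.21, adjusted p = 0.000201. ADE5,7 and ADE6 had log2 fold changes of -0.90 ± 0.36, adjusted p = 0.0581, and -0.60 ± 0.24, adjusted p = 0.0555. Both were called with RLE factors, with no filter and in DESeq2, which gave -0.96, adjusted p = 0.0226 for ADE5,7 and -0.66, adjusted p = 0.0205 for ADE6. In CBS1538 11.1, 2 of 9 rose and none fell (median 0.71, against 19.9% called higher, 16.7% lower and a median of 0.06), with 0 lower also at an unadjusted p under 0.05 and in DESeq2. These were ADE17, at 2.08 ± 0.51, adjusted p = 0.00555, and ADE12, at 1.27 ± 0.34, adjusted p = 0.00959. Both calls were lost without day 4 replicate 1, with 1.19, adjusted p = 0.0682 for ADE17 and 0.66, adjusted p = 0.124 for ADE12, and no member was called without it.

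Single libraries moved for nearly all members at once. In CBS1538 11.1, day 4 replicate 1 had the highest level of its group for 9 of 9 genes, and minimal medium replicate 3 likewise for 9 of 9. In W34/70 9.7, day 2 replicate 3 had the lowest level of its group for 8 of 10 genes and the highest for ADE16, and its ADE17 share was 5.29% against 23.4% and 21.4% in the other day 2 libraries. That library had 12782267 counts, the fewest among the 9 of its strain, and a TMM factor of 0.807. The same count was not made over all symbols, so these shifts cannot be read as particular to the ADE genes. The part of depth or scaling in them was not tested.

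The strains were compared with the copies summed, for the 9 genes with a row in each sub-genome. In minimal medium 1 gene was higher and 1 lower in W34/70 9.7 than in CBS1538 11.1, where 41.3% of all symbols were called higher and 28.7% lower and the median of all symbols was 0.26. ADE4 was higher, at 333 ± 41.6 CPM in W34/70 9.7 and 202 ± 26.5 CPM in CBS1538 11.1 (SD, n = 3 each), a log2 fold change of 0.72 ± 0.27, adjusted p = 0.0268. ADE16 was lower, at 201 ± 17.0 CPM in W34/70 9.7 and 647 ± 139 CPM in CBS1538 11.1, a log2 fold change of -1.68 ± 0.21, adjusted p = 2e-06. The other 7 had log2 fold changes of -0.14 to 0.81 with SE of 0.23 to 0.58, and ADE17 stood at 734 ± 31.8 CPM in W34/70 9.7 and 733 ± 173 CPM in CBS1538 11.1. ADE4 was no longer called without CBS1538 11.1 replicate 1 or 2 or W34/70 9.7 replicate 3, at 0.74, adjusted p = 0.053, 0.62, adjusted p = 0.0932, and 0.61, adjusted p = 0.0947. A fit to the minimal-medium libraries alone called 5 members, adding ADE2, ADE12 and ADE13 as higher in W34/70 9.7. The shares of all symbols called in that fit are not given here, so its 5 calls cannot be set against the shares above.

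On day 4, 1 of the 9 was higher and 3 were lower in W34/70 9.7, against 41.7% of symbols called higher, 26.6% lower and a median of 0.30. ADE1 was higher, at 0.81 ± 0.31, adjusted p = 0.0285, while ADE16 (-1.02 ± 0.21, adjusted p = 0.000356), ADE4 (-0.80 ± 0.27, adjusted p = 0.016) and ADE6 (-0.77 ± 0.24, adjusted p = 0.00813) were lower. The ADE1 call was lost without day 4 replicate 2 or 3 of either strain, at 0.74, adjusted p = 0.08 and 0.76, adjusted p = 0.0658 for W34/70 9.7 and 0.61, adjusted p = 0.143 and 0.58, adjusted p = 0.151 for CBS1538 11.1. The ADE4 call was lost without W34/70 9.7 replicate 3 (-0.69, adjusted p = 0.0567) or CBS1538 11.1 replicate 1 (-0.64, adjusted p = 0.0702). Without CBS1538 11.1 day 4 replicate 1, ADE13, ADE2 and ADE12 were called higher in W34/70 9.7, at 1.90, adjusted p = 0.00344, 1.07, adjusted p = 0.0352, and 0.94, adjusted p = 0.0144.

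On day 2, 5 of the 9 were higher and none lower (0 also at an unadjusted p under 0.05 and in DESeq2) in W34/70 9.7, against 38.5% of symbols called higher, 23.4% lower and a median of 0.26. They were ADE13 (1.47 ± 0.60, adjusted p = 0.0422), ADE1 (1.43 ± 0.32, adjusted p = 0.000857), ADE17 (1.40 ± 0.50, adjusted p = 0.0233), ADE12 (1.28 ± 0.34, adjusted p = 0.00372) and ADE2 (1.25 ± 0.40, adjusted p = 0.0128). The libraries of the strains overlapped for ADE13, ADE17 and ADE2 and stood apart for ADE1 and ADE12. ADE1 stood at 167 ± 66.0 CPM in W34/70 9.7 and 61.9 ± 15.8 CPM in CBS1538 11.1, and ADE16 at 556 ± 152 CPM in W34/70 9.7 and 563 ± 71.2 CPM in CBS1538 11.1 (SD, n = 3 each). Without W34/70 9.7 day 2 replicate 1 the calls for ADE13, ADE17 and ADE2 were lost, at 1.00, adjusted p = 0.192, 0.81, adjusted p = 0.185, and 1.06, adjusted p = 0.0511, and without CBS1538 11.1 day 2 replicate 3 the same 3 were lost, at 1.21, adjusted p = 0.142, 1.30, adjusted p = 0.0733, and 1.08, adjusted p = 0.0575. Without W34/70 9.7 day 2 replicate 2, ADE2 was at 0.88, adjusted p = 0.0777 and ADE13 at 1.54, adjusted p = 0.0541, and without CBS1538 11.1 day 2 replicate 2, ADE13 was at 1.23, adjusted p = 0.139 and ADE17 at 1.43, adjusted p = 0.0532.

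Whether a change differed between the strains was tested as the change in W34/70 9.7 minus that in CBS1538 11.1. For minimal medium over day 2, 2 of 9 genes passed, 1 in each direction, where 12.4% of all symbols were called with a more positive and 16.4% with a more negative change in W34/70 9.7. For ADE16 the change was more negative in W34/70 9.7, with a difference of -1.67 ± 0.29, adjusted p = 0.000411, and for ADE4 it was more positive, with a difference of 1.30 ± 0.39, adjusted p = 0.0183. For minimal medium over day 4, ADE4 alone passed, at 1.52 ± 0.39, adjusted p = 0.00846 (10.5% and 13.7% of symbols were called in the positive and negative direction), and for day 4 over day 2 ADE16 alone, at -1.01 ± 0.29, adjusted p = 0.037 (5.32% and 5.35%). The last call was lost with library totals (-0.68, adjusted p = 0.0751), in a fit to the compared groups (-0.98, adjusted p = 0.0871), and without any of 8 of the 12 libraries compared, with adjusted p from 0.0665 to 0.0947. Without W34/70 9.7 day 2 replicate 3, ADE17, ADE1, ADE2 and ADE12 also differed in their change between minimal medium and day 2, at -1.82, adjusted p = 0.0427, -1.22, adjusted p = 0.0371, -1.17, adjusted p = 0.03, and -1.14, adjusted p = 0.0451, all less positive in W34/70 9.7.

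The copies behind these sums differed between the strains. In CBS1538 11.1, S. cerevisiae rows carried more than 9 counts for 3 members, ADE1 (chromosome I), ADE5,7 (VII) and ADE12 (XIV). The S. cerevisiae rows of ADE4, ADE13, ADE16 and ADE17 held 0 of 101457198 counts over its 9 libraries, which allows up to 0.0296 CPM by counting error alone, and those of ADE2, ADE6 and ADE8 held 7, 9 and 1 counts. The S. eubayanus row of ADE5,7, at positions 54537 to 56945 on the plus strand of chromosome VII in the deposited table, held 0 counts in all 18 libraries, which allows up to 0.0207 CPM over the libraries of W34/70 9.7 and 0.0296 CPM over those of CBS1538 11.1. In both strains the ADE5,7 counts thus lay on the S. cerevisiae row, YGL234W, at positions 56482 to 58890 on the plus strand of chromosome VII in build R64, with 58084 counts in W34/70 9.7 and 40181 in CBS1538 11.1. The S. eubayanus ADE2 row is listed on chromosome VIII, while the S. cerevisiae row is on XV. For the other genes with 2 rows, both rows lie on chromosomes of the same number.

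For W34/70 9.7 both copies were read for the 8 other genes with a row in each sub-genome. The S. eubayanus share of a gene's counts in minimal medium was highest for ADE1, at 71.9 ± 0.339%, followed by ADE13 at 47.8 ± 1.07%, ADE16 at 45.9 ± 2.62%, ADE2 at 44.7 ± 2.87% and ADE4 at 41.6 ± 9.49%. It was lower for ADE17, at 26.0 ± 1.03%, ADE12, at 23.7 ± 2.73%, and ADE6, at 20.3 ± 2.52%. Against the 32.1% to 33.1% of all counts on S. eubayanus rows in these libraries, 3 genes lay below and ADE4 replicate 3, at 31.2%, was the one library of the other 5 that did so. Of the isoenzyme pair, the S. cerevisiae copy gave most of the ADE17 counts, and the copies of ADE16 were nearly even.

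Tested apart, 11 of 18 ADE rows rose and 2 fell over day 2 in W34/70 9.7, against 29.5% of features called higher and 27.6% lower, and 13 rose and none fell over day 4 (20.6% and 23.5%; 0 were lower at an unadjusted p under 0.05 or in DESeq2). The 2 rows that fell over day 2 were the copies of ADE16, at -1.49 ± 0.38, adjusted p = 0.00795 for S. cerevisiae and -1.52 ± 0.20, adjusted p = 1.9e-05 for S. eubayanus. They were also lower on day 4 than on day 2, as the 2 calls among the 18 (16.4% of features were called higher and 12.8% lower), at -1.16 ± 0.38, adjusted p = 0.0454, and -1.57 ± 0.20, adjusted p = 0.000203. The day 4 call for the S. cerevisiae copy was lost without day 2 replicate 1 or 3 or any of the day 4 libraries, with log2 fold changes of -1.30 to -0.93 and adjusted p of 0.0689 to 0.138. In CBS1538 11.1, 8 of 11 detected rows rose over day 2 (20.9% of features called higher, 22.1% lower), 5 over day 4 (20.7% and 23%) and 2 on day 4 relative to day 2 (12.3% and 11.8%), and none fell, with 0 lower at an unadjusted p under 0.05 and in DESeq2. The largest was again ADE17, whose S. eubayanus copy rose by 4.02 ± 0.60, adjusted p = 0.00012 over day 2.

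S. eubayanus ADE6, at positions 591294 to 595370 on chromosome VII, had 2 and 0 counts in the W34/70 9.7 libraries day 4 replicate 1 and day 2 replicate 2, the same libraries that nearly lacked counts from that chromosome. In the other wort libraries of the strain it had 892 and 443 counts on day 4 and 528 and 339 on day 2. Its S. cerevisiae copy read 2748 counts in day 4 replicate 1, against 2949 and 1630 in the other day 4 libraries, and 2967 in day 2 replicate 2, against 2761 and 1338 in the other day 2 libraries. These are raw counts from libraries of unlike depth. After scaling, the S. cerevisiae copy lay between 133 and 179 CPM on day 4 and between 154 and 302 CPM on day 2. With all libraries the log2 fold change of the S. eubayanus copy over day 2 was 2.01 ± 1.25, adjusted p = 0.186, and that over day 4 was 2.10 ± 1.25, adjusted p = 0.191. Without those 2 libraries it was 1.42, adjusted p = 0.000747 over day 2 and 1.51, adjusted p = 0.000729 over day 4. The S. eubayanus copy of CBS1538 11.1, whose libraries share the fit's estimate of spread, was at 1.26 ± 1.22, adjusted p = 0.565, over day 2 with all libraries and 1.31, adjusted p = 0.00075 without the 2, and with all libraries in a fit to its own 2 groups it was 1.26, adjusted p = 0.000647. With copies summed, ADE6 in W34/70 9.7 was at 1.31, adjusted p = 0.000563 over day 2 and 1.78, adjusted p = 6.14e-05 over day 4 without the 2 libraries.

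Other chromosome-wide shifts among the W34/70 9.7 wort libraries touched members too. S. cerevisiae chromosome XII, with ADE13 and ADE16, had median deviations of -0.95 in day 4 replicate 1 and -0.85 in day 2 replicate 2 (log2, over 437 features), each from the mean of the other libraries of its group. Day 4 replicate 1 and day 2 replicate 2 had the highest S. eubayanus shares of ADE16 on their days, 52.9% and 61.2%. S. cerevisiae chromosome I, with ADE1, had -0.88 in day 4 replicate 2 and -0.82 in day 2 replicate 1 (over 75 features), the libraries with the highest S. eubayanus shares of ADE1, 77.1% and 84.2%. S. cerevisiae chromosome IV, with ADE8, had 0.58 in day 4 replicate 2 and 0.56 in day 2 replicate 1 (over 703 features), where ADE8 was the highest of its group on each day. In these chromosomes day 4 replicate 1 thus resembled day 2 replicate 2, and day 4 replicate 2 resembled day 2 replicate 1, while the tests between the wort days treat the libraries as unpaired. In CBS1538 11.1, S. eubayanus chromosome XII had smaller shifts, 0.30 in day 4 replicate 1 and 0.26 in day 2 replicate 1 (over 426 features). ADE13 and ADE16 were the highest of their group in those libraries, though day 4 replicate 1 was so for 9 of 9 genes. The part of these shifts in the ADE levels was not tested.

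**Figure D4:**
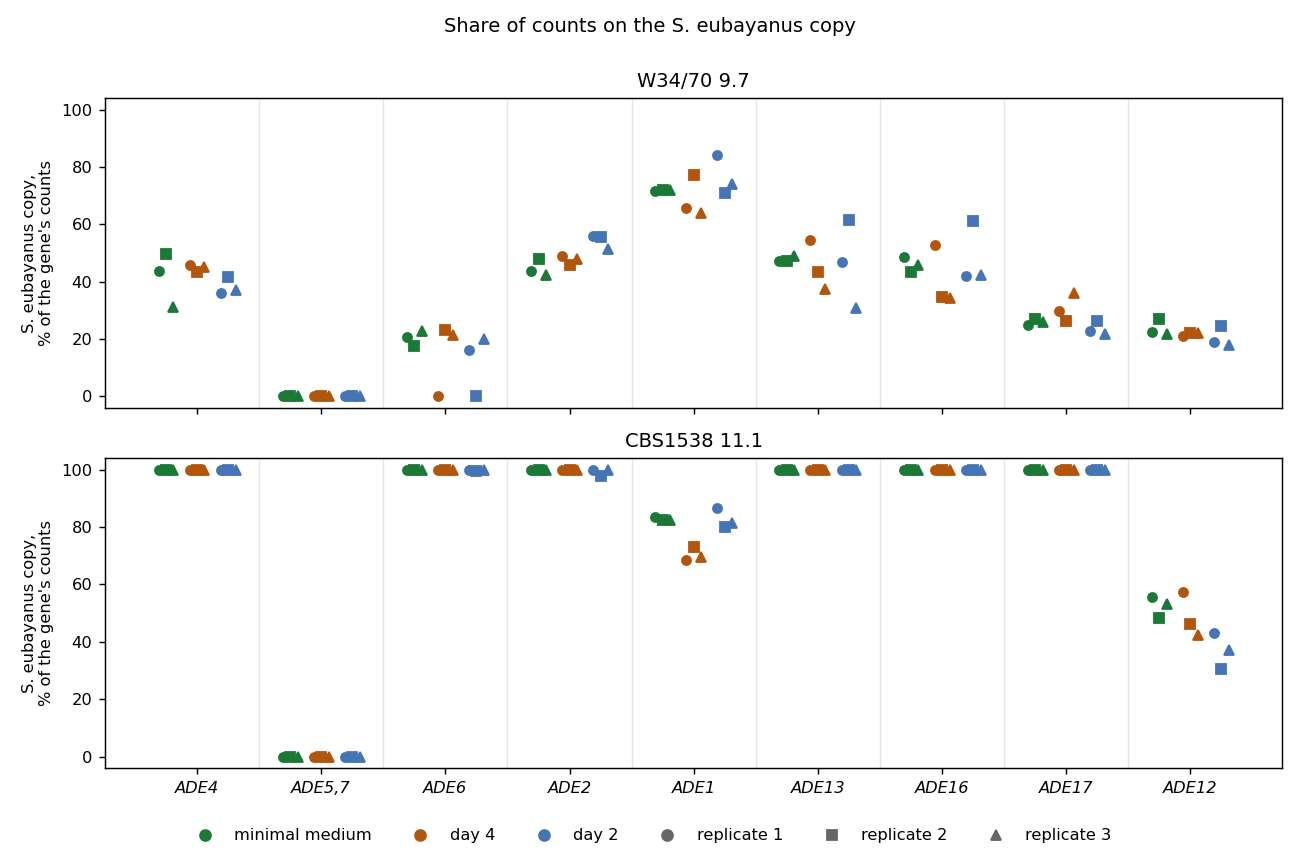
Share of each ADE gene's counts on its S. eubayanus copy (%), by library, for W34/70 9.7 above and CBS1538 11.1 below, coloured by condition. The share is 0 for ADE5,7 in every library and near 100 for 6 genes in CBS1538 11.1, and that of ADE6 is 0.0727% in day 4 replicate 1 and 0% in day 2 replicate 2 of W34/70 9.7.

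Whether the copies of a gene changed unequally was tested on the ratio of S. eubayanus to S. cerevisiae counts with limma. In W34/70 9.7, 1 of 8 genes passed for minimal medium over day 2 (27.3% of gene pairs did), and none for minimal medium over day 4 (12.6%) or day 4 over day 2 (10%). At an unadjusted p under 0.05 there were 0 over day 4 and, between the wort days, 1 in each direction. The gene was ADE2, whose S. eubayanus share was 44.7 ± 2.87% in minimal medium and 54.3 ± 2.49% on day 2, a log2 change of the ratio of -0.55 ± 0.15, adjusted p = 0.0295. In CBS1538 11.1 only ADE1 and ADE12 had both copies. The S. eubayanus share of ADE1 was 82.8 ± 0.729% in minimal medium, 70.5 ± 2.40% on day 4 and 82.7 ± 3.51% on day 2, with called changes of the ratio for minimal medium over day 4 (1.01 ± 0.21, adjusted p = 0.0109, where 25% of pairs were called) and for day 4 over day 2 (-1.02 ± 0.21, adjusted p = 0.0212, 14.3%). That of ADE12 was 52.3 ± 3.65% in minimal medium and 37.0 ± 6.23% on day 2, with a change of 0.91 ± 0.29, adjusted p = 0.0475 (28.4%). Apart from ADE1 over day 4, each of these calls was lost on leaving out single libraries, with adjusted p between 0.0655 and 0.107 for ADE2 in 4 of 6 cases, 0.0686 and 0.138 for ADE12 in 5 of 6, and 0.0686 and 0.0817 for ADE1 between the wort days without any day 4 library.

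Per kilobase of coding length, the order of the members shifted with the condition. In minimal medium ADE1 was highest in both strains, at 810.5 ± 136 CPM per kb in W34/70 9.7 and 568 ± 121 CPM per kb in CBS1538 11.1 (SD, n = 3). For W34/70 9.7 it was followed by ADE17 at 413 ± 17.9 and ADE13 at 389 ± 23.0 CPM per kb, which overlapped each other, then by ADE5,7, ADE12, ADE4, ADE8 and ADE2, each overlapping its neighbour, with means of 285 down to 184. ADE6 at 129.5 ± 4.77 and ADE16 at 113 ± 9.60 CPM per kb were lowest and apart from each other. In CBS1538 11.1, ADE17 at 412 ± 97.0 and ADE16 at 364 ± 78.2 CPM per kb came next to ADE1 and overlapped it and each other in turn. On day 2 ADE16 was first in both strains, at 313 ± 85.6 CPM per kb in W34/70 9.7, where it overlapped ADE1 at 181 ± 71.6, and at 317 ± 40.1 CPM per kb in CBS1538 11.1, where the next gene, ADE5,7, stood apart at 87.6 ± 21.3. On day 2 ADE2 was last in both, at 39.0 ± 23.8 CPM per kb in W34/70 9.7, where it overlapped ADE4, and 16.5 ± 3.41 in CBS1538 11.1. On day 4 ADE12 led in W34/70 9.7, at 208 ± 7.75 CPM per kb, and ADE16 in CBS1538 11.1, at 249 ± 27.0, where it overlapped ADE12. ADE17, the second gene in minimal medium, was 7th of 10 on both wort days in W34/70 9.7, and in CBS1538 11.1 it was 4th of 9 on day 4, at 97.6 ± 74.3 CPM per kb, and 8th of 9 on day 2, at 23.1 ± 3.00. It overlapped its neighbours in the order on both wort days in W34/70 9.7 and on day 4 in CBS1538 11.1. On day 2 in CBS1538 11.1 it overlapped ADE13, the gene above it, but not ADE2 below it. None of its wort ranks is thus fully resolved.

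The other genes of purine metabolism were taken from lists of regulators, one-carbon and glycine genes, PRPP synthesis, the guanine branch, and salvage, interconversion and uptake, 34 in all. Their counts stand against the shares of all symbols given above, which over day 2 were 33.1% higher and 32.4% lower in W34/70 9.7 and 31.6% and 24.3% in CBS1538 11.1, and over day 4 were 26.3% and 28.9% in W34/70 9.7 and 29.1% and 26.6% in CBS1538 11.1. Of the one-carbon and glycine genes, 6 of 8 rose and 1 fell over day 2 and 6 rose and none fell over day 4 in W34/70 9.7, and in CBS1538 11.1, 7 of 8 rose over day 2 and 8 over day 4 and none fell (0 lower at an unadjusted p under 0.05 and in DESeq2). SHM2, the cytosolic serine hydroxymethyltransferase, stood at 1498 ± 189 CPM in minimal medium, 183 ± 51.5 CPM on day 4 and 266 ± 113 CPM on day 2 in W34/70 9.7, with 2.49 ± 0.42, adjusted p = 5.96e-05 over day 2. GCV3, of the glycine cleavage system, rose by 3.30 ± 0.35, adjusted p = 4.57e-07 over day 2 in W34/70 9.7 and by 4.00 ± 0.36, adjusted p = 2.11e-07 in CBS1538 11.1. ADE3, the cytosolic C1-tetrahydrofolate synthase, was the one that fell over day 2 in W34/70 9.7, at -1.50 ± 0.18, adjusted p = 1.41e-06, and it rose in CBS1538 11.1, at 0.45 ± 0.17, adjusted p = 0.0365. SHM1, the mitochondrial serine hydroxymethyltransferase, was not called over day 2 in either strain, at -0.37 ± 0.20, adjusted p = 0.117 in W34/70 9.7 and 0.23 ± 0.20, adjusted p = 0.387 in CBS1538 11.1. In W34/70 9.7, ADE3 fell in the same comparison as ADE16, and like ADE16 it differed between the strains in this change, with a difference of -1.95 ± 0.24, adjusted p = 1.43e-05.

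Of the regulators, neither BAS1 nor PHO2 was called between conditions in W34/70 9.7 (adjusted p of 0.0677 or more in edgeR, with 1 lower over day 4 at an unadjusted p under 0.05 and 2 in DESeq2). In CBS1538 11.1, BAS1 stood at 40.7 ± 2.81 CPM in minimal medium, 78.4 ± 17.0 CPM on day 4 and 105 ± 28.1 CPM on day 2, and it was lower in minimal medium, with a log2 fold change of -1.38 ± 0.22, adjusted p = 5.35e-05, over day 2 and -0.95 ± 0.21, adjusted p = 0.00132, over day 4, comparisons in which most ADE genes were higher. The BAS1 change over day 2 differed between the strains (1.02 ± 0.30, adjusted p = 0.0166). PHO2 stood at 30.9 ± 10.2 CPM in minimal medium, 65.9 ± 4.60 CPM on day 4 and 26.0 ± 7.11 CPM on day 2 in CBS1538 11.1. It was lower in minimal medium than on day 4, at -1.09 ± 0.23, adjusted p = 0.000741, and higher on day 4 than on day 2, at 1.33 ± 0.23, adjusted p = 0.000454, while its log2 fold change for minimal medium over day 2 was 0.24 ± 0.23, adjusted p = 0.447. In the guanine branch, 3 of 5 rose and 1 fell over day 2 in W34/70 9.7 and 3 of 3 rose in CBS1538 11.1, among them GUA1, the GMP synthase, at 1.43 ± 0.22 in W34/70 9.7 and 1.54 ± 0.22 in CBS1538 11.1. Of 14 salvage, interconversion and uptake genes, 6 rose and 4 fell over day 2 in W34/70 9.7 (42.9% and 28.6%, near the shares of all symbols), and 8 rose and 2 fell in CBS1538 11.1 (57.1% and 14.3%). HPT1, the hypoxanthine-guanine phosphoribosyltransferase, rose by 2.66 ± 0.46 in W34/70 9.7 and 3.49 ± 0.49 in CBS1538 11.1, while FCY21, a member of the purine-cytosine permease family, had log2 fold changes of -2.71 ± 0.29 in W34/70 9.7 and -1.54 ± 0.28 in CBS1538 11.1, called lower in both. Of the PRS genes of PRPP synthesis, 1 of 5 was higher and 1 lower over day 2 in W34/70 9.7 (20% each way, below the shares of all symbols), and none was called in CBS1538 11.1. Of those 5 over day 2 in CBS1538 11.1, edgeR gave 1 at an unadjusted p under 0.05, PRS5, and DESeq2 called 0. Over day 4, by contrast, 4 of 5 PRS genes rose and 1 fell in W34/70 9.7 (80% and 20%). In CBS1538 11.1, 3 of 5 rose over day 4 and 0 fell (60% and 0%). For the guanine branch over day 4, 3 of 5 rose in W34/70 9.7 and 2 of 3 in CBS1538 11.1, and 0 fell. The salvage, interconversion and uptake genes had 7 of 14 higher and 2 lower over day 4 in each strain (50% and 14.3%).

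**Figure D5:**
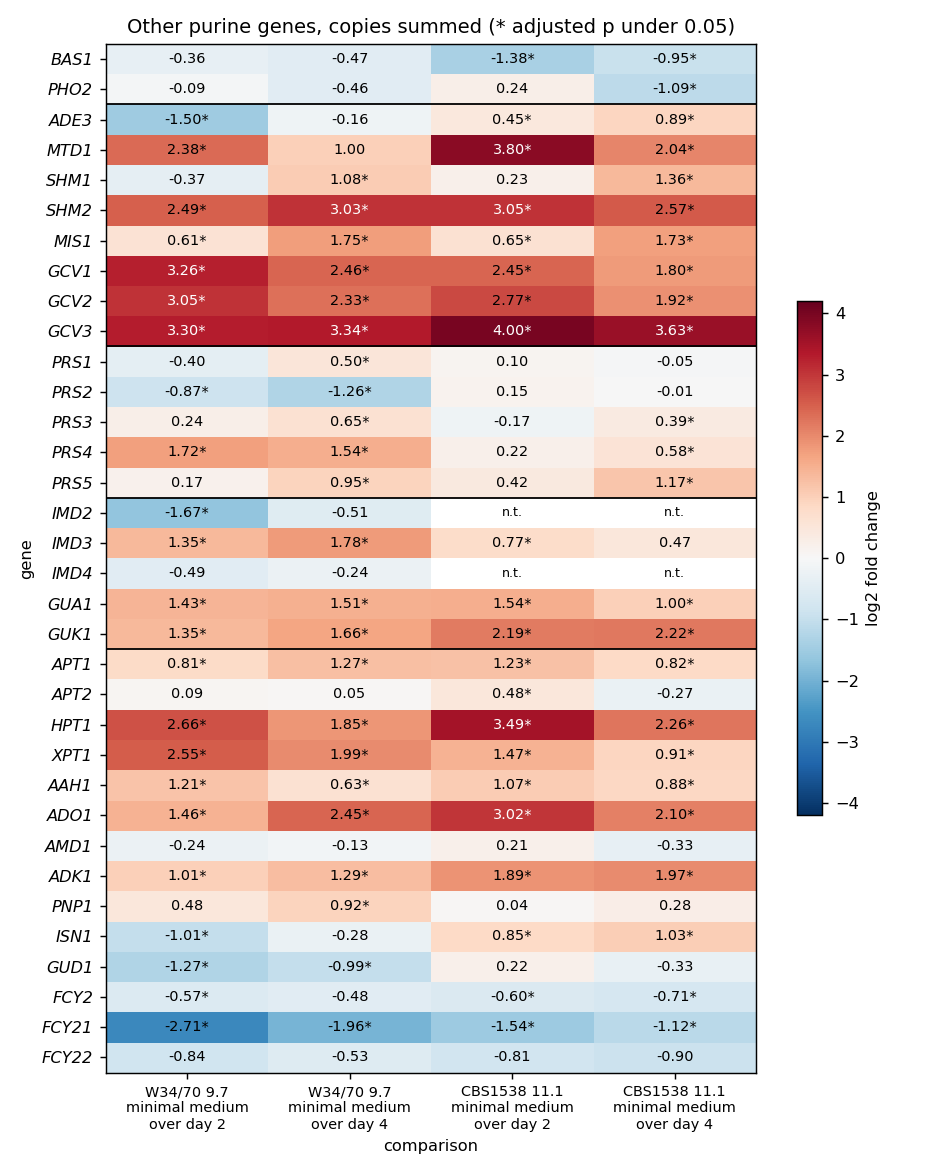
Log2 fold changes of 34 other purine genes, copies summed, for minimal medium over day 2 and over day 4 in W34/70 9.7 and CBS1538 11.1, with an asterisk for an adjusted p under 0.05 and n.t. for genes not tested in that strain. From top to bottom the blocks are regulators, one-carbon and glycine, PRPP synthesis, guanine branch, and salvage, interconversion and uptake, and the one-carbon block is mostly red while BAS1 reads -1.38 in CBS1538 11.1.

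The mean ADE profile over the 6 group means, centred within each strain, was compared with those of 4415 symbols. The 10 genes closest to it that are neither members nor listed, by root mean square difference on the log2 scale, were CIR2 (0.10), SBH2 (0.12), ERB1 (0.13), SSO2 (0.14), RPL17B (0.15), LIA1 (0.15), AIM14 (0.15), NCL1 (0.15), ERG7 (0.16) and RPL11B (0.16). Among the 9 members read in both strains, ADE6 came closest, at 0.25 and rank 51, and ADE16 was farthest, at 1.05 and rank 3024. The profile is the mean of these 9 members, so each was compared with a mean that includes it. Their ranks are thus not on the same footing as those of the other symbols.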

How the data were processed

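Paired reads of 150 bp from 18 libraries were counted per gene, and the values are whole-number read counts as deposited by the authors. Alignment and counting with STAR, SAMtools and featureCounts, genome build R64 and the use of DESeq2 are named in the submitters' processing notes, without versions. The sources used here do not give the S. eubayanus assembly, the strand setting or the treatment of reads that map to both sub-genomes, so near-identical copies and the paralogs ADE16 and ADE17 could exchange reads. Cultures were grown in triplicate, per the labels' protocols, and p-values measure only the spread between these libraries, part of which may be technical.

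ADE rows were taken by symbol, and copies were summed or kept apart. Genes passing filterByExpr (10 counts, 15 in total) were fitted together over all 6 groups in edgeR 4.0.16 (R 4.3.3) with TMM factors and the quasi-likelihood test, leaving 6633 symbols or 10894 rows, over which p was adjusted. Background shares cover those with at least 10 counts in the libraries compared. The 2486 rows whose symbol is their identifier were kept under it. Ratios of copies, log2 of counts + 0.5, were tested with limma 3.58.1 for pairs with a mean of at least 10 counts per library in each copy. CPM per kb used the coding length in the table. Likeness used symbols with at least 5 CPM and a pseudocount of 0.1 CPM. The statistics were tested on simulated data.

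Alternatives were library totals, RLE factors, no filter, DESeq2 1.42.0, the replicate number as a block, a fit to the compared groups, each library left out in turn, leaving out the 2 libraries nearly lacking S. eubayanus chromosome VII counts and, for ratios, a pseudocount of 5 or a mean of 50 counts. Named genes are all 10 members, the 34 listed purine genes by count and size, and the 10 genes closest in pattern. Members and lists were chosen with earlier results of these data known.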

Additional observations from a re-analysis of the deposited data

Results flagged for a closer look

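The change between conditions differed between the strains for 2 ADE genes and for some of the 29 other purine genes tested in both strains. Each value below is the log2 fold change in W34/70 9.7 minus that in CBS1538 11.1, tested as an interaction in edgeR.

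For minimal medium over day 2 the difference was -1.67 for ADE16 (adjusted p = 0.000411), with log2 fold changes of -1.47 in W34/70 9.7 and 0.20 in CBS1538 11.1. It was 1.30 for ADE4 (adjusted p = 0.0183), with 2.11 in W34/70 9.7 and 0.82 in CBS1538 11.1. Of the 29 other genes, 3 had a more positive and 5 a more negative change in W34/70 9.7 (10.3% and 17.2%), against 12.4% and 16.4% of all symbols. The difference was 1.02 for BAS1 (adjusted p = 0.0166), 1.50 for PRS4 (adjusted p = 9.93e-05) and 1.08 for XPT1 (adjusted p = 0.035). It was -1.95 for ADE3 (adjusted p = 1.43e-05), -1.86 for ISN1 (adjusted p = 0.000105), -1.55 for ADO1 (adjusted p = 0.000541), -1.48 for GUD1 (adjusted p = 0.000945) and -1.02 for PRS2 (adjusted p = 0.00297).

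For minimal medium over day 4 the difference was 1.52 for ADE4 (adjusted p = 0.00846), with 1.63 in W34/70 9.7 and 0.11 in CBS1538 11.1. Of the 29 other genes, 3 passed in each direction (10.3% each, against 10.5% and 13.7% of all symbols): IMD3 at 1.31 (adjusted p = 0.00683), XPT1 at 1.08 (adjusted p = 0.0368) and PRS4 at 0.95 (adjusted p = 0.00507), and ISN1 at -1.31 (adjusted p = 0.00252), PRS2 at -1.25 (adjusted p = 0.000696) and ADE3 at -1.05 (adjusted p = 0.00431).

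For day 4 over day 2 the difference was -1.01 for ADE16 (adjusted p = 0.037). Of the 29 other genes, 4 had a more negative change in W34/70 9.7 (13.8%, against 5.35% of all symbols), ADO1 at -1.90 (adjusted p = 0.00261), PRS1 at -1.06 (adjusted p = 0.0162), ADE3 at -0.90 (adjusted p = 0.0251) and APT1 at -0.87 (adjusted p = 0.0462). The ADE16 libraries of W34/70 9.7 on day 4 lay between 191 and 245 CPM and those on day 2 between 390.3 and 689 CPM, and in CBS1538 11.1 they lay between 397 and 493 CPM on day 4 and between 513 and 644 CPM on day 2. The comparisons within a strain share libraries, and those with day 2 carry the doubt over the label of the CBS1538 11.1 day 2 libraries.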

How the results depend on the processing

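No called change of an ADE gene turned its direction under any setting run. Over the settings that keep every library, 1223 results on single ADE genes or copies stayed on their side of the threshold, 36 passed it anew and 19 fell back, and without the 2 libraries nearly lacking S. eubayanus chromosome VII counts 207 stayed, 13 passed anew and 2 fell back. With 1 library left out, 1416 stayed, 27 passed anew and 87 fell back. The count of ADE genes called on day 4 over day 2 in W34/70 9.7, copies summed, was 1, against 2 with library totals and 3 each with RLE factors, without the filter and in DESeq2. A fit to the compared groups called 5 in place of 2 between the strains in minimal medium, 2 in place of 1 (as did library totals) for the strain difference in minimal medium over day 4, 0 in place of 1 (as did library totals, while DESeq2 called 2) for that in day 4 over day 2, and with copies apart 1 in place of 2 on day 4 over day 2 in W34/70 9.7, 8 in place of 5 on minimal medium over day 4 and 4 in place of 2 on day 4 over day 2 in CBS1538 11.1. Leaving out those 2 libraries called 1 ratio, that of ADE16, in place of 0 for minimal medium over day 4 in W34/70 9.7. The shares of all symbols called under these settings are not set beside these counts, and the cause of the moves was not tested.

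With the replicate block, the strain difference in day 4 over day 2 called 0 in place of 1, the ratios called 0 in place of 1 for minimal medium over day 2 in W34/70 9.7 and for day 4 over day 2 in CBS1538 11.1, and ADE16 in CBS1538 11.1 was at 0.55, adjusted p = 0.064, for minimal medium over day 4. Same-numbered libraries did not all deviate together: between day 4 and day 2 in W34/70 9.7 the correlations of their deviations from the group means over symbols were -0.64, -0.55 and 0.52 for replicates 1, 2 and 3, so the numbers were not taken as pairs. There day 4 replicate 1 correlated best with day 2 replicate 2 (0.80), day 4 replicate 2 with day 2 replicate 1 (0.56) and replicate 3 with replicate 3 (0.52), which is a hint from the data and not from the labels. The block was fitted on the numbers as labelled, so its calls for the wort days of W34/70 9.7 rest on the labelled numbers, and no fit with other pairings was made. Over all gene pairs the block called 241 in place of 509 ratios for minimal medium over day 4, 90 in place of 404 for day 4 over day 2 in W34/70 9.7 and 73 in place of 152 in CBS1538 11.1, and over all symbols 456 in place of 708 for the strain difference in day 4 over day 2.

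With 1 library left out, ADE genes called with copies summed ranged from 8 to 9 for minimal medium over day 2 and 7 to 8 over day 4 in W34/70 9.7, and from 7 to 8 and 5 to 7 in CBS1538 11.1. For day 4 over day 2 they ranged from 1 to 4 in W34/70 9.7 and 0 to 3 in CBS1538 11.1. Between the strains they ranged from 1 to 2 in minimal medium, 2 to 6 on day 4 and 2 to 5 on day 2, and for the strain difference in the change from 2 to 6 for minimal medium over day 2, 1 to 1 over day 4 and 0 to 2 for day 4 over day 2. With copies apart, day 4 over day 2 ranged from 1 to 3 in W34/70 9.7 and 0 to 2 in CBS1538 11.1. Called ratios ranged from 0 to 1 for minimal medium over day 2 in W34/70 9.7 and in CBS1538 11.1, and 0 to 1 for day 4 over day 2 in CBS1538 11.1, where leaving out any day 4 library called 0 of all pairs. Shares of all symbols called without each library are not set beside these ranges. The ranges therefore cannot be read as particular to the ADE genes.

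Library totals moved the median log2 fold change of all symbols for day 4 over day 2 in W34/70 9.7 to 0.52, against 0.07 with TMM, and the share of calls that were higher to 85.8%, against 54.9%. For minimal medium over day 2 in W34/70 9.7 the median was 0.32, against -0.01, and the share 63.1%, against 50.5%. In CBS1538 11.1 the share for day 4 over day 2 was 66.4%, against 54%. Under library totals PRS3, a PRPP synthetase gene, was at 0.0354 for day 4 over day 2 in W34/70 9.7, against -0.41. Levels of a few counts could not be compared between conditions at this depth. This held for the S. cerevisiae copies of ADE2, ADE6 and ADE8 in CBS1538 11.1.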
